A study of Sus scrofa with 6 samples.

Results

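Peroxisome and fatty acid oxidation genes were examined in 2 populations of porcine blood monocytes, with 47 genes measured of the 13755 genes that carry a symbol on the array. The members were all genes whose array symbol belongs to the peroxins (PEX), the acyl-CoA oxidases (ACOX), the acyl-CoA dehydrogenases (ACAD), the hydroxyacyl-CoA dehydrogenases (HADH), the carnitine palmitoyltransferases (CPT1 and CPT2), the long-chain acyl-CoA synthetases (ACSL), the acyl-CoA thioesterases (ACOT) or the enoyl-CoA hydratase and isomerase families (ECH and ECI), together with EHHADH, HSD17B4, ACAA1, ACAA2 and CAT. The choice was by name and not by a cut on measured values, but it was made with earlier results of these data known. The 47 genes were covered by 87 of the 47722 tested probe sets, and the brightest probe set of a gene, by its average on the 6 arrays, stood for it. No probe set carried the symbol CAT, ECI1 or ECI2. CAT and ECI1 were not analysed here, and ECI2 is on the array under its older symbol PECI, which the choice by name did not take in.

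The cells came from frozen mononuclear blood cells of 3 Large White x Landrace piglets at 8 weeks of age. A cell sorter separated them by antibodies to CD14, a lipopolysaccharide co-receptor, and CD163, the haemoglobin scavenger receptor. One population was CD14low-CD163high (called CD163high) and the other CD14high-CD163low (called CD163low), with 3 arrays each and 1 array of each population from each pig. The animals were untreated and no allele is named in the labels, so the populations differed by the gate alone as far as the labels say, and their cells had been through the same freezing and thawing. The gate is a cut on surface protein, and the arrays hold whatever cells passed it.

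Fatty acids are broken down by beta-oxidation in 2 organelles. Peroxisomes shorten very long, branched and dicarboxylic chains, with enzymes that are imported by the peroxins, and mitochondria oxidise the common long and medium chains after activation to acyl-CoA and entry through the carnitine shuttle. In macrophages fatty acid oxidation is known as an energy source of resting and repair-type cells, and acyl-CoA synthetases are known to change with inflammatory activation.

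All values are log2 signals of the array, and a difference is CD163high minus CD163low on that scale, given with its limma standard error. Signals of different probe sets cannot be set against each other, so each gene is compared with itself across arrays. Background was read from 69 control probe sets, whose log2 signals averaged 2.82, 2.97 and 3.67 on the CD163high arrays and 3.29, 2.60 and 3.06 on the CD163low arrays of pigs 1, 2 and 3. Of the 47 genes 35 lay above this mean on every array and 8 lay under it on 1 to 5 arrays. ACSL6, PEX2, PEX5L and PEX11A lay under the mean on all 6. The brightest of the 69 controls reached 6.13, 6.78 and 8.38 on the CD163high arrays and 6.85, 5.76 and 6.53 on the CD163low arrays. Probe sets above all controls numbered 5219, 3757 and 676 in CD163high and 2327, 6700 and 3649 in CD163low of pigs 1, 2 and 3. Background below means the control mean, and a signal above it can still lie within the range of the controls. The first principal component of all probe sets held 55.2% of the variance and did not separate the populations, with scores of -41.5, -80.6 and 97.2 in CD163high and 88.3, -92.3 and 28.9 in CD163low. The gated antigen CD163 had log2 signals of 8.17, 7.98 and 7.61 in CD163high against 4.97, 6.17 and 6.54 in CD163low. Its dimmer probe set overlapped, with 5.37, 5.29 and 4.28 in CD163high against 3.14, 4.29 and 4.34 in CD163low. The other gated antigen, CD14, had 4.31, 5.53 and 5.82 in CD163high against 6.24, 5.78 and 6.84 in CD163low, lower in CD163high within every pig but with overlap. The monocyte markers, of which 5 of 8 were measured, had mean log2 levels of 7.09 to 7.83 in CD163high and 6.98 to 7.64 in CD163low arrays. None of the 5 was under background on all arrays. The 5 include both gated antigens, so these means depend in part on the gate. CD163 alone had a difference above 0, the other 4 had differences below 0, and the median was -0.04.

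EHHADH was the member with the smallest p, and it was higher in CD163high monocytes on every array. ACSL1 and ACOT8 were lower in CD163high monocytes on every array. No member passed the test over the whole array, where limma called 0 of 47722 probe sets at an adjusted p of 0.05 (0%) and 1235 had an unadjusted p under 0.05. The adjusted p of every member was 1, and an exact permutation test of 3 against 3 arrays cannot go below 0.1, so the unadjusted limma p-values below describe sizes against spread and make no call. In sorted bulk RNA fewer cells of a type and less RNA per cell cannot be told apart. At that unadjusted threshold limma gave 1 higher member, against 1.84% of all genes (1.23% of all probe sets), and 2 lower members, against 1.43% of all genes (1.36% of all probe sets), so that 3 of 47 stood beside 3.27% in either direction. Groups did not overlap for 1 higher member, against 3.02% of genes, and for 3 lower members, against 3.16%. Over all 87 member probe sets, 4 were higher and 4 lower with an unadjusted limma p under 0.05, or 9.20%, against 2.59% of all probe sets. Probe sets that share a gene are not independent, and these came from 3 genes for higher and 3 for lower. The 2.59% is over all 47722 tested probe sets, of which 26426 carry a symbol, so the 2 shares are not of like sets.

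With the pig as a block limma again called 0 probe sets, and 6 of 47 members had an unadjusted p under 0.05, against 5.12% of genes. There 4 members were higher, against 2.67% of genes, and 2 lower, against 2.45%, and the additional ones were PEX5, ACAA2 and ACAD8, all higher. With the pig as a random block (duplicateCorrelation) the count was 4, against 4.77% of genes, and PEX5 alone was additional. Without the block the count was 11 when CD163high of pig 3 was left out, against 7.36% of genes, and 9 when CD163low of pig 2 was left out, against 5.97% of genes. It was 2, EHHADH and ACSL1, when any 1 of the other arrays was left out, against 2.04% and 3.45% of genes for CD163high of pigs 1 and 2 and 2.81% and 2.09% for CD163low of pigs 1 and 3.

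**Figure D1:**
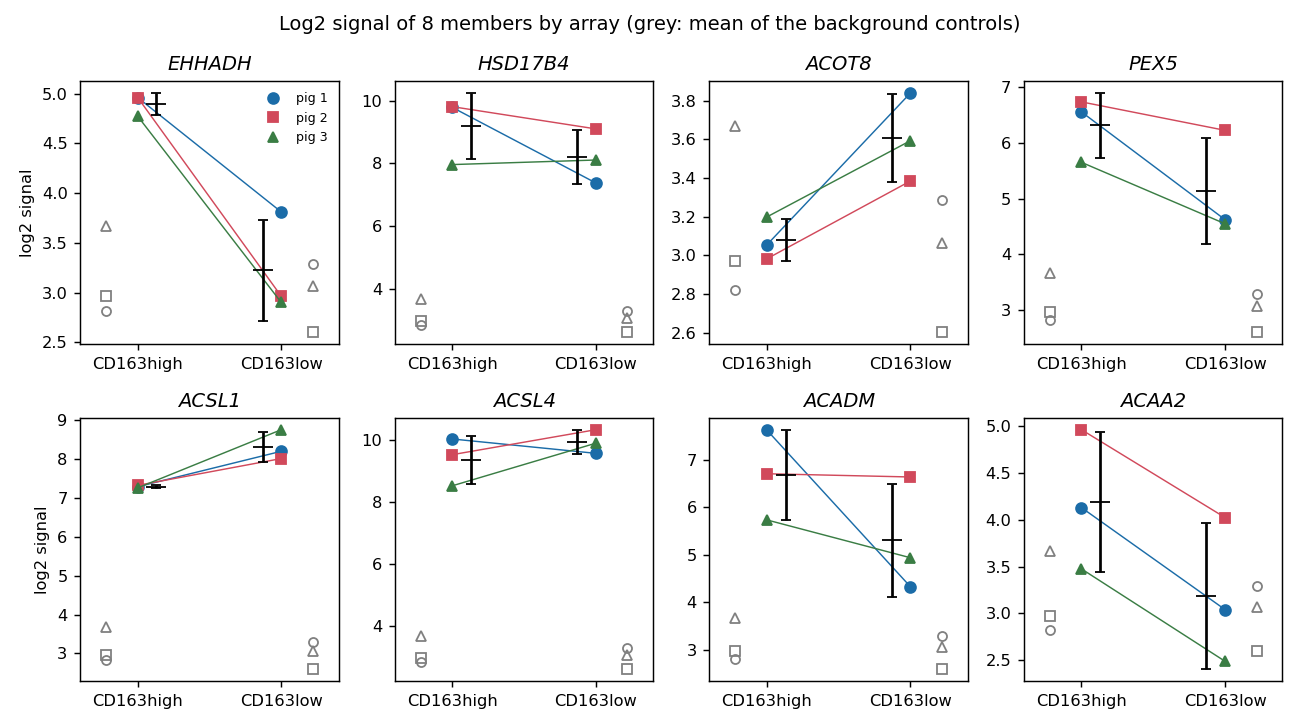
Log2 signal (y axis) of 8 members in the CD163high and CD163low arrays of 3 pigs. Filled symbols are arrays, lines join the arrays of a pig, black marks are mean ± SD (n = 3) and grey open symbols are the mean background control signal of each array. The 3 CD163high arrays lie above the 3 CD163low arrays for EHHADH and under them for ACSL1 and ACOT8.

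Among the enzymes of peroxisomal beta-oxidation, EHHADH stood apart from the other 7 measured. EHHADH is the L-bifunctional enzyme, which hydrates and dehydrogenates acyl-CoA in peroxisomes. Its log2 signal was 4.96, 4.96 and 4.77 in CD163high against 3.81, 2.96 and 2.90 in CD163low of pigs 1, 2 and 3. The groups did not overlap, and the CD163high arrays lay close together. The means were 4.90 ± 0.11 in CD163high and 3.23 ± 0.51 in CD163low (SD, n = 3 each), a difference of 1.67 ± 0.28 or 3.19-fold (limma unadjusted p = 0.000845). CD163low of pig 3 lay under its background control mean, and every array lay under its brightest background control, so the size of the fold is uncertain.

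EHHADH has 4 probe sets, and the others bear on this value. The probe set with the next highest signal had 3.44, 4.68 and 4.56 in CD163high against 2.65, 2.47 and 2.61 in CD163low, again without overlap. All 3 CD163low arrays lay under their background control means there, so its difference is given as a bound of at least 2.36-fold against those means (limma unadjusted p = 0.00290). A further probe set had a difference of 0.72 ± 0.45, with 4.15 in CD163high of pig 2 and between 2.25 and 2.60 on the other 5 arrays, and the dimmest had -0.07 ± 0.17 and lay under background on all 6. Averaged over its 4 probe sets EHHADH had a difference of 0.99 (limma unadjusted p = 0.00432).

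HSD17B4, the D-bifunctional enzyme that carries out the same pair of steps for branched and very long chains, did not separate the populations. Its signal was 9.79, 9.82 and 7.96 in CD163high against 7.38, 9.10 and 8.11 in CD163low. It was high in CD163high of pigs 1 and 2 and in CD163low of pig 2, and the groups overlapped. The difference was 0.99 ± 0.65 (limma unadjusted p = 0.175), with 2.42, 0.71 and -0.15 in pigs 1, 2 and 3, and a second probe set had 0.85 ± 1.20.

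ACOT8, the peroxisomal thioesterase that releases fatty acids from acyl-CoA, had 3.05, 2.98 and 3.20 in CD163high against 3.84, 3.38 and 3.59 in CD163low. The groups did not overlap, and CD163high of pig 3 lay under background. The difference was -0.53 ± 0.19, or 1.44-fold lower in CD163high (limma unadjusted p = 0.0286). Leaving out any 1 array other than CD163high of pig 3 or CD163low of pig 2 ended the unadjusted p under 0.05, with p between 0.0704 and 0.0842 (limma).

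The acyl-CoA oxidases, which make the first and hydrogen peroxide-producing step, showed small differences. ACOX2, known for branched chains and bile acid intermediates, had 3.07, 3.18 and 2.90 in CD163high against 3.43, 3.18 and 3.19 in CD163low. Its groups did not overlap, but the 2 arrays of pig 2 were equal to 2 decimals, and the difference of -0.22 ± 0.17 had an unadjusted limma p of 0.254. ACOX3, the pristanoyl-CoA oxidase, had -0.24 ± 0.52 and ACOXL, an oxidase-like gene near background, 0.04 ± 0.17. ACAA1, the peroxisomal thiolase, lay between 4.13 and 4.27 in CD163high and between 4.13 and 4.22 in CD163low, with a difference of 0.02 ± 0.15.

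ECH1, a dienoyl-CoA isomerase found in both organelles, gave different answers by probe set. The brightest had 4.83, 4.79 and 5.18 in CD163high against 5.97, 4.48 and 4.80 in CD163low, a difference of -0.15 ± 0.40 in which CD163low of pig 1 was the highest array. Another had 4.66, 5.35 and 4.33 in CD163high against 3.82, 3.59 and 3.81 in CD163low, a difference of 1.04 ± 0.29 without overlap (limma unadjusted p = 0.0104). The last of its 3 probe sets had 0.42 ± 0.25. Which of them follows the transcript was not tested.

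**Figure D2:**
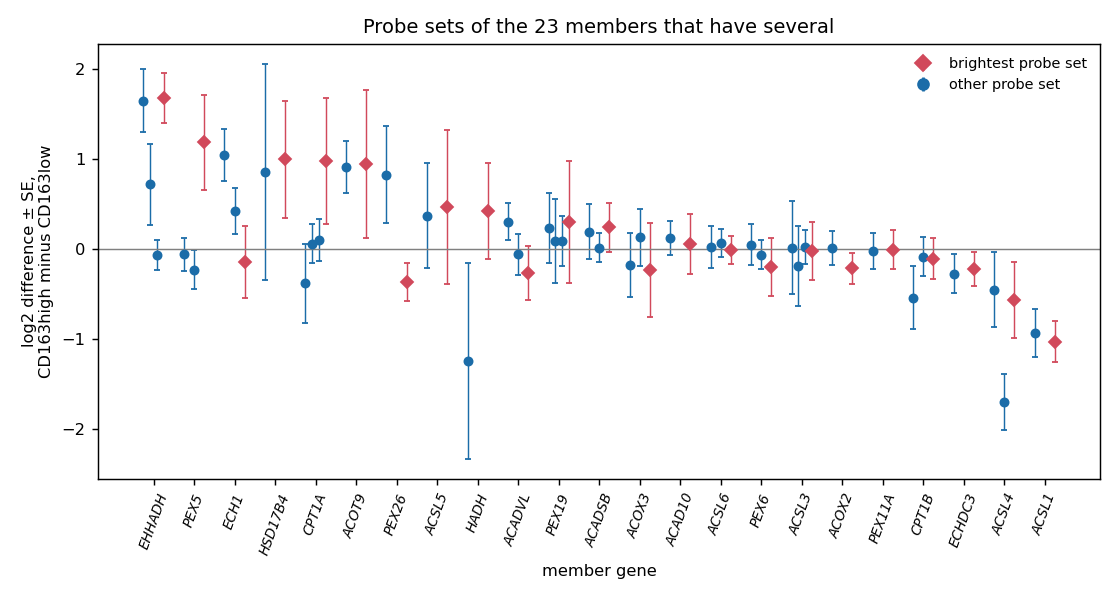
Log2 difference ± SE (y axis, CD163high minus CD163low, limma, 6 arrays) of every probe set of the 23 members that have several, with the brightest as a diamond. Probe sets of ECH1, PEX26 and HADH lie on both sides of 0, whereas those of ACSL1, ACSL4 and HSD17B4 lie on 1 side each.

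The peroxins had no member past the unadjusted threshold without the block, and 4 of 11 were above 0 and 7 below. PEX5, the cytosolic receptor that carries enzymes with a C-terminal signal into the peroxisome, had the largest difference among them. Its signal was 6.56, 6.74 and 5.65 in CD163high against 4.62, 6.22 and 4.55 in CD163low. It was higher in CD163high within every pig, but CD163low of pig 2 lay above CD163high of pig 3. The difference was 1.18 ± 0.53 (limma unadjusted p = 0.0666, unadjusted p = 0.0171 with the pig as a fixed block and unadjusted p = 0.0388 with it as a random block). Dimmer probe sets of PEX5 had -0.06 ± 0.19 and -0.23 ± 0.22, so that the difference rests on 1 of its 3 probe sets.

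PEX3 and PEX19, which insert membrane proteins of the peroxisome, had differences of 0.29 ± 0.37 and 0.30 ± 0.68. PEX3 had 4.38, 3.84 and 3.96 in CD163high against 3.33, 4.54 and 3.45 in CD163low, with the highest array in CD163low. PEX19 had 5.15, 6.93 and 5.28 in CD163high against 4.29, 6.04 and 6.14 in CD163low. Both had signs that differed between pigs.

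PEX26, a peroxisomal membrane protein of the import machinery, had 4.16, 4.33 and 4.74 in CD163high against 4.91, 4.72 and 4.71 in CD163low, a difference of -0.37 ± 0.21. Its other probe set pointed the other way, at 0.82 ± 0.54, with 5.72, 5.37 and 3.64 in CD163high against 4.26, 4.05 and 3.95 in CD163low. PEX6, an ATPase of protein import, had -0.21 ± 0.32. The docking proteins PEX13 and PEX14 had 0.05 ± 0.17 and -0.10 ± 0.24, and PEX10, a ubiquitin ligase subunit of the import machinery, -0.16 ± 0.20. PEX2, another ligase subunit, PEX11A, which acts in peroxisome division, and PEX5L, a PEX5-related gene, were under background on every array, with differences between -0.20 and -0.01.

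**Figure D3:**
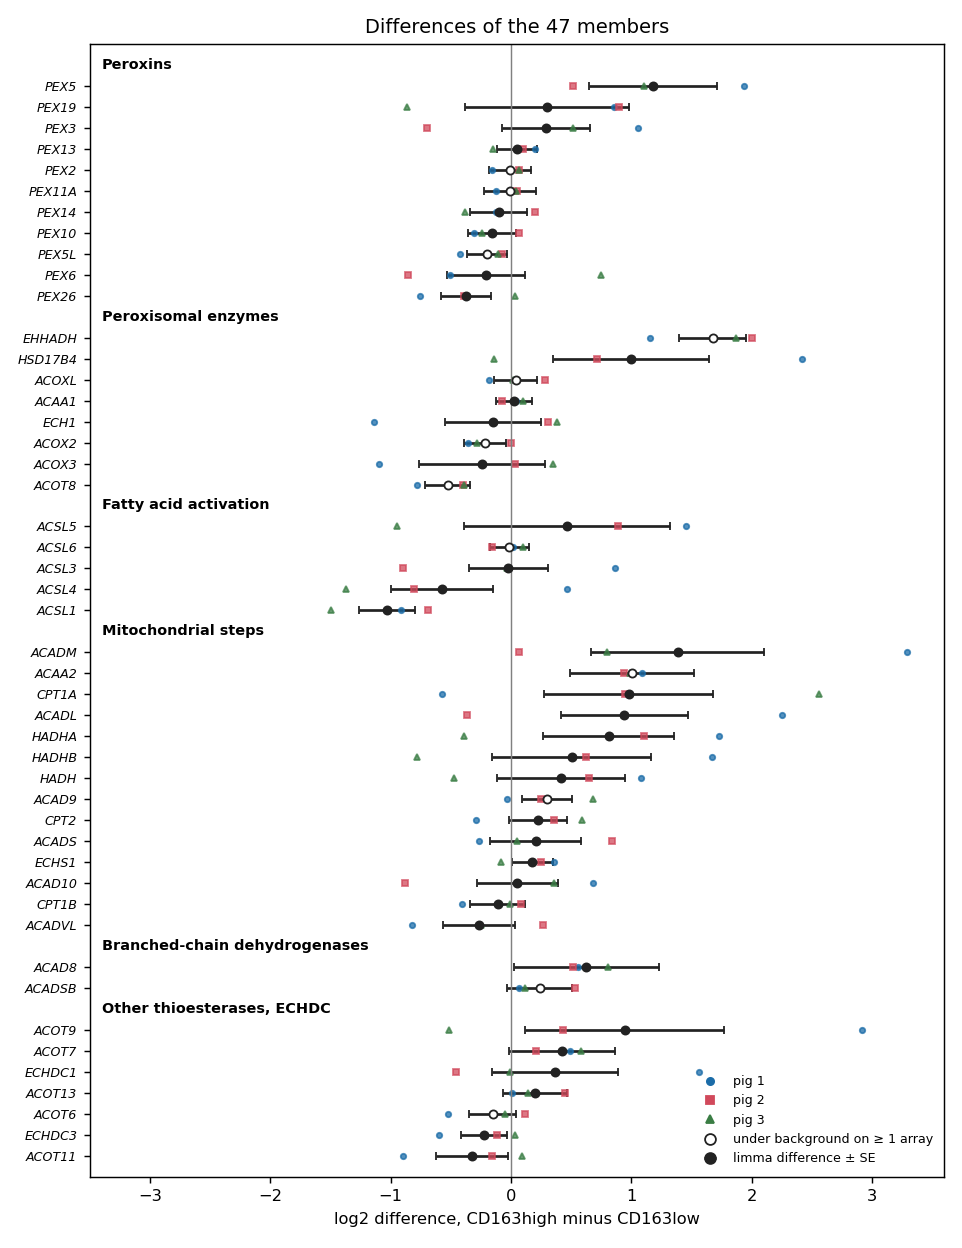
Log2 difference (x axis, CD163high minus CD163low) of all 47 members by role, with the limma difference ± SE in black and the difference within each pig in colour. Open circles are genes under the background control mean on at least 1 array. EHHADH and ACSL1 have 3 pig values on the same side and far from 0, and most mitochondrial genes spread widely between pigs.

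Fatty acid activation was led by ACSL1, which was lower in CD163high monocytes. ACSL1 is a long-chain acyl-CoA synthetase, known in mouse macrophages to be induced by inflammatory stimuli. Its signal was 7.29, 7.32 and 7.26 in CD163high against 8.20, 8.01 and 8.75 in CD163low of pigs 1, 2 and 3. The CD163high arrays were nearly equal, and every CD163low array lay above them. The means were 7.29 ± 0.03 in CD163high and 8.32 ± 0.39 in CD163low (SD, n = 3 each), a difference of -1.03 ± 0.23, or 2.04-fold lower in CD163high (limma unadjusted p = 0.00376). A second probe set had 5.91, 6.15 and 5.69 in CD163high against 6.79, 6.45 and 7.32 in CD163low, a difference of -0.94 ± 0.27 (limma unadjusted p = 0.0126).

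ACSL4, a synthetase with a preference for arachidonic acid, differed by probe set in size but not in sign. The brightest had 10.03, 9.52 and 8.52 in CD163high against 9.56, 10.33 and 9.89 in CD163low, with overlap, and a difference of -0.57 ± 0.42. The next had -0.45 ± 0.42. The dimmest of the 3 lay above the background control mean on every array, but under the brightest control in CD163high of pig 3. Its signal was 7.09, 7.49 and 7.59 in CD163high against 9.10, 8.56 and 9.63 in CD163low. It did not overlap and had a difference of -1.71 ± 0.31, or 3.26-fold lower in CD163high (limma unadjusted p = 0.00130). The deposited table does not say which part of the transcript each probe set reads.

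ACSL5, a synthetase of mitochondria and endoplasmic reticulum, had 8.66, 9.26 and 6.10 in CD163high against 7.21, 8.37 and 7.05 in CD163low. CD163high held both the highest and the lowest array, and the difference was 0.47 ± 0.86. ACSL3, known from lipid droplets, had -0.02 ± 0.33, and ACSL6 was under background.

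ACSL1 is also known to be expressed in neutrophils, and neutrophil marker levels are given here for that reason. Of 9 listed markers 5 were measured, 4 of them with a difference under 0, and their mean log2 level was 4.42 to 5.07 in CD163high and 4.97 to 5.74 in CD163low arrays. The marker LTF was under background on every array, whereas CXCR2 had 4.69, 6.24 and 5.11 in CD163high against 7.93, 7.83 and 8.26 in CD163low. The markers were not alike, with differences of -2.66 for CXCR2 and -1.09 for CSF3R. MPO, under background on 4 arrays, had -0.10, MMP9 -0.09 and LTF 0.10, and the median of the list was -0.10. T cell markers (7 of 7), B cell markers (4 of 4 measured), NK cell markers (5 of 5), dendritic cell markers (5 of 5 measured) and platelet markers (3 of 4 measured) also had differences under 0. The mean log2 level of the T cell markers was 4.96 to 7.30 in CD163high and 5.72 to 7.22 in CD163low arrays. That of the B cell markers was 4.51 to 6.26 in CD163high and 5.31 to 6.89 in CD163low, and that of the NK cell markers 4.98 to 5.87 in CD163high and 5.33 to 5.95 in CD163low. The dendritic cell markers had 4.62 to 4.76 in CD163high and 4.58 to 5.58 in CD163low, and the platelet markers, whose arrays did not overlap, 3.62 to 4.00 in CD163high and 4.15 to 4.38 in CD163low. No marker of these 5 lists was under background on every array. Of 4 erythroid markers 2 were measured, 1 with a difference above 0 and 1 below. Their mean log2 level in pig 2 was 9.50 in CD163high and 9.31 in CD163low. On the arrays of pigs 1 and 3 it lay between 3.27 and 3.86. The part of other cells in these results was not tested.

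Carnitine palmitoyltransferases, which bring long chains into mitochondria, showed no difference beyond the spread between arrays. CPT1A, the rate-limiting entry enzyme, had 4.18, 4.57 and 6.73 in CD163high against 4.76, 3.62 and 4.18 in CD163low. The value of CD163high of pig 3 stood alone at the top, the other 2 CD163high arrays lay within the CD163low range, and the difference was 0.98 ± 0.70 (limma unadjusted p = 0.212). The 3 dimmer probe sets of CPT1A did not have this peak, with 3.13, 2.62 and 2.18 in CD163high of pig 3, all under background there, and differences of -0.38 ± 0.44, 0.06 ± 0.22 and 0.10 ± 0.23. CPT1B, the muscle-type enzyme, had -0.11 ± 0.23 and CPT2, the inner membrane enzyme, 0.22 ± 0.24. The carnitine-acylcarnitine carrier SLC25A20, which links them and is no member by name, had 3.85, 4.43 and 4.17 in CD163high against 3.45, 3.34 and 3.27 in CD163low, without overlap, and a difference of 0.79 ± 0.20 (limma unadjusted p = 0.00713).

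The enzymes of the mitochondrial beta-oxidation spiral were mostly above 0 in CD163high, with large differences between pigs. Of 11 measured, 10 had a positive difference and none had an unadjusted limma p under 0.05. Over all genes 6559 of 13755 had a positive difference. The median of the 11 was 1.08, 0.26 and 0.05 within pigs 1, 2 and 3, and in pig 3 alone 6 of them were above 0. ACADM, the medium-chain acyl-CoA dehydrogenase, had 7.62, 6.70 and 5.73 in CD163high against 4.33, 6.64 and 4.94 in CD163low. Within pigs 1, 2 and 3 its difference was 3.29, 0.07 and 0.79, so that most of the mean of 1.38 ± 0.72 came from pig 1 (limma unadjusted p = 0.0998). ACADL, the long-chain enzyme, had 7.11, 5.91 and 5.80 in CD163high against 4.86, 6.27 and 4.86 in CD163low, a difference of 0.94 ± 0.52.

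ACAA2, the mitochondrial thiolase of the last step, had the same size of difference in each pig. Its signal was 4.13, 4.96 and 3.47 in CD163high against 3.04, 4.02 and 2.49 in CD163low, and its differences were 1.09, 0.94 and 0.99 in pigs 1, 2 and 3. The populations overlapped because the pigs differed more than the populations. Limma gave 1.01 ± 0.52 (unadjusted p = 0.0983), with an unadjusted p of 0.00284 with the pig as a fixed block and of 0.0523 with the pig as a random block. CD163low of pigs 1 and 3 and CD163high of pig 3 lay under background, so its size is uncertain.

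HADHA and HADHB, the subunits of the trifunctional protein, were higher in CD163high in pigs 1 and 2 and lower in pig 3. HADHA had 5.70, 6.57 and 5.25 in CD163high against 3.98, 5.47 and 5.64 in CD163low, a difference of 0.81 ± 0.54. HADHB had 8.05, 8.42 and 6.17 in CD163high against 6.38, 7.79 and 6.96 in CD163low, a difference of 0.50 ± 0.66. HADH, the short-chain hydroxyacyl-CoA dehydrogenase, had 1.08, 0.65 and -0.47 in the 3 pigs and 0.42 ± 0.53 in all. Its other probe set had -1.25 ± 1.09, with 8.07 in CD163low of pig 1 and between 3.24 and 5.62 on the other 5 arrays.

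The rest of the spiral had small differences. ECHS1, the enoyl-CoA hydratase, had 5.05, 5.15 and 4.92 in CD163high against 4.69, 4.90 and 5.01 in CD163low, a difference of 0.18 ± 0.17. ACADS, the short-chain dehydrogenase, had 0.20 ± 0.38, ACAD9, also an assembly factor of complex I, 0.30 ± 0.21, and ACAD10 0.05 ± 0.34. ACADVL, the very long-chain enzyme, was the 1 member of the spiral under 0, at -0.27 ± 0.30. A dimmer probe set of ACADVL had 0.30 ± 0.21, so that its sign is not settled.

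**Figure D4:**
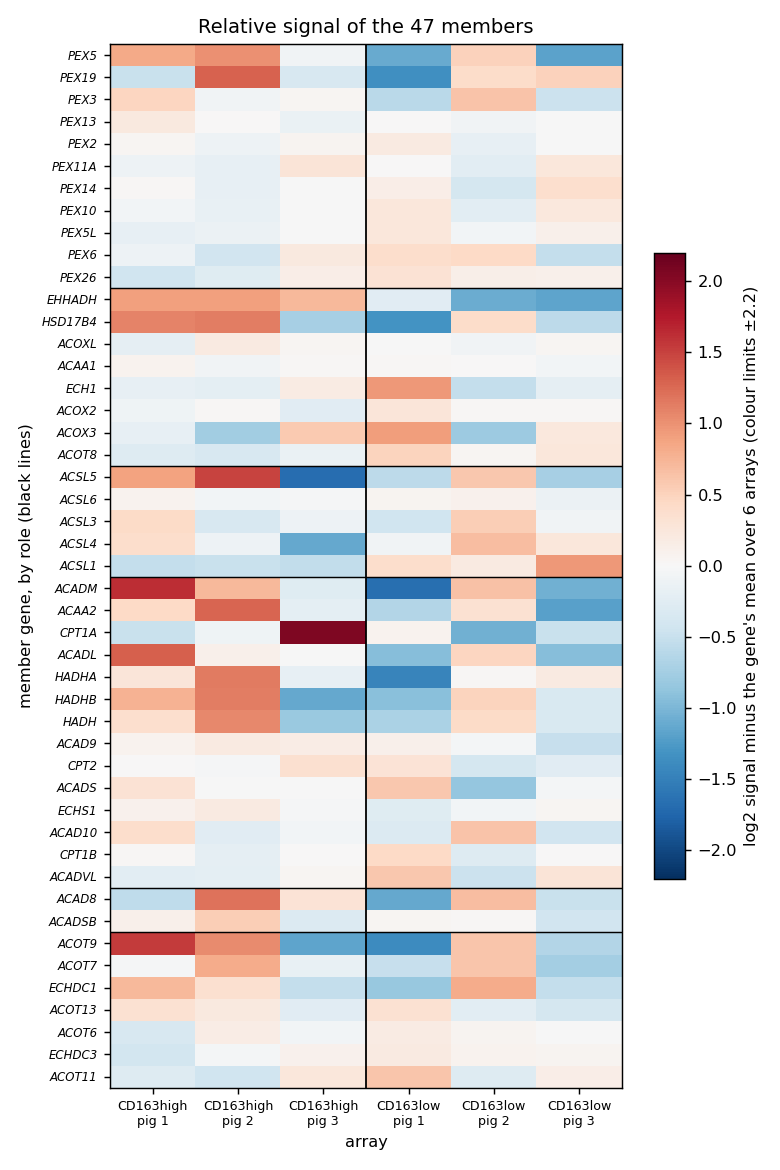
Log2 signal of the 47 members (rows, by role) in 6 arrays (columns) after subtraction of each gene's mean over the arrays. ACADM, HADHB, HSD17B4, ACOT9 and PEX5 are high in CD163high of pigs 1 and 2 and in CD163low of pig 2, while EHHADH and ACSL1 follow the population.

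Several of these genes shared 1 array pattern that was not that of the gate. HSD17B4, ACADM, HADHB, HADH, ACSL5, ACOT9 and PEX5 had their highest signals in CD163high of pigs 1 and 2 and in CD163low of pig 2. These 3 arrays had negative scores on the first principal component, and the other 3 had positive ones. Deviations from the group means over the 47 members correlated at 0.68 for the pair made of the CD163high array from pig 3 and the CD163low array from pig 1, the 2 with the highest background control signal. The arrays of the same pig correlated at -0.34, 0.58 and 0.24 in pigs 1, 2 and 3. These correlations are across genes, which are not independent replicates, and the part of array background in the pattern was not tested.

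**Figure D5:**
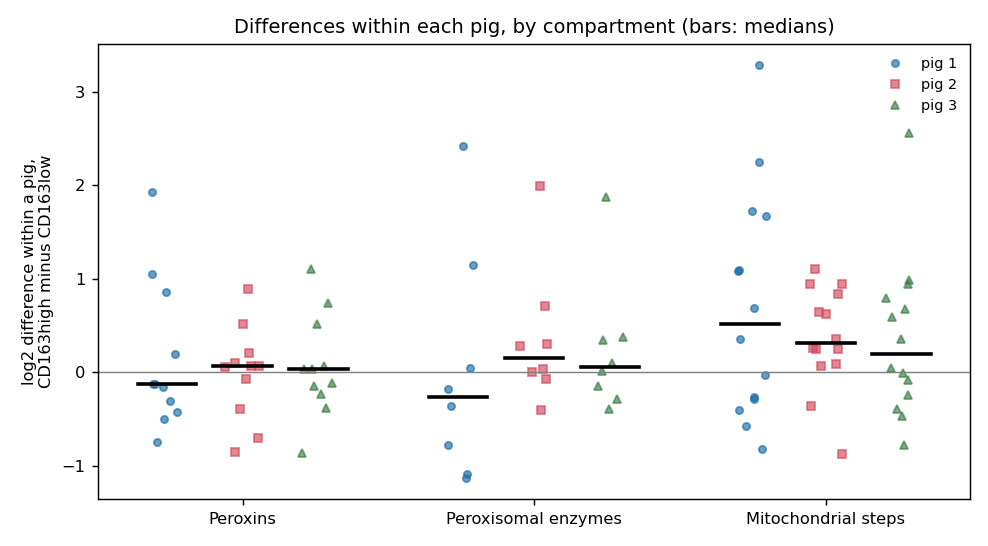
Log2 difference within each pig (y axis, CD163high minus CD163low) of 11 peroxins, 8 peroxisomal enzymes and 14 genes of mitochondrial entry and oxidation, with a point per gene and a bar at the median. The mitochondrial medians are 0.52, 0.31 and 0.20 in pigs 1, 2 and 3, and the peroxisomal ones lie between -0.27 and 0.16.

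Set side by side, the mitochondrial steps had the higher median difference, and the peroxisomal enzymes held EHHADH and ACOT8. The 14 genes of mitochondrial entry and oxidation had a median difference of 0.36, with 12 above 0 and 2 below. In pig 3 alone 8 of the 14 were above 0. The 8 peroxisomal enzymes had a median of -0.06, with 4 above and 4 below, and the 11 peroxins -0.01. The median over all 13755 genes was -0.01, with 6559 above 0 and 7196 below, and over all 47 members it was 0.05. The partner genes of the pathway had the other order, with 0.37 for 24 peroxisome partners and 0.23 for 16 mitochondrial partners. These are descriptions of the lists, without a test.

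The peroxisomal enzymes minus the mitochondrial steps gave -0.42 between the list medians. Within pigs 1, 2 and 3 it was -0.79, -0.15 and -0.15, so the sign was shared and the size was not. Omitting pig 1 gave -0.16, omitting its CD163low array -0.26, omitting the CD163high array of pig 2 -0.26 and omitting the CD163low array of that pig -0.66. When every probe set of a gene was averaged the value was -0.18. The mitochondrial median reached 0.54 on omission of the CD163low array of pig 2, and it was 0.21 with averaged probe sets. Relative to each gene's own mean, the mitochondrial median was 0.30, 0.15 and -0.02 in CD163high against -0.28, -0.01 and -0.34 in CD163low. CD163high of pig 3 and CD163low of pig 2 lay next to each other.

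The direction was the same in all 3 pigs for 8 higher members, against 10.5% of genes, and for 4 lower members, against 12.5% of genes. The higher ones were EHHADH, PEX5, ACADM, ACAA2, ACAD8, ACADSB, ACOT7 and ACOT13, and the lower ones ACSL1, ACOT8, ACOX2 and PEX5L.

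Members outside the main routes included dehydrogenases of branched-chain amino acids and further thioesterases. ACAD8, of valine breakdown, had 3.90, 5.65 and 4.76 in CD163high against 3.34, 5.13 and 3.96 in CD163low. The pigs differed more than the populations, and the difference of 0.63 ± 0.60 had an unadjusted limma p of 0.337, of 0.0204 with the pig as a fixed block and of 0.245 with it as a random block. The fixed block was the 1 setting of 20 that took ACAD8 under 0.05. ACADSB, of isoleucine breakdown, had 0.24 ± 0.27.

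ACOT9, a mitochondrial thioesterase, had 7.06, 6.57 and 4.36 in CD163high against 4.14, 6.14 and 4.88 in CD163low, a difference of 0.94 ± 0.82. Its dimmer probe set had 5.51, 5.86 and 4.84 in CD163high against 4.44, 4.67 and 4.37 in CD163low. There the groups did not overlap and the difference was 0.91 ± 0.29 (limma unadjusted p = 0.0189). ACOT7, a cytosolic thioesterase, had 0.42 ± 0.44, ACOT13, which is tied to mitochondria, 0.20 ± 0.27, ACOT11 -0.32 ± 0.30 and ACOT6, near background, -0.15 ± 0.19. ECHDC1, an ethylmalonyl-CoA decarboxylase, had 0.37 ± 0.52 and ECHDC3 -0.23 ± 0.19.

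Other genes of the pathway, from lists of partners and regulators, showed few differences at the unadjusted threshold. Of 24 measured peroxisome partners none had an unadjusted limma p under 0.05, and their median difference was 0.37, with 17 above 0 and 7 below. Within pigs 1, 2 and 3 that median was 0.81, 0.10 and 0.02, and in pig 3 12 of the 24 were above 0, so that the value came mostly from pig 1. AMACR, a racemase that prepares branched chains, had 4.14, 4.36 and 3.30 in CD163high against 3.09, 3.83 and 2.85 in CD163low, and a difference of 0.68 ± 0.38 (limma unadjusted p = 0.120, with 0.0272 for the pig as a fixed block and 0.0731 as a random block). It was higher in CD163high within every pig. SLC25A17, a peroxisomal cofactor carrier, had 0.78 ± 0.56 and CROT, the peroxisomal carnitine octanoyltransferase, 0.56 ± 0.40. AMACR and CROT each lay under background on 3 arrays, CD163high of pig 3 and CD163low of pigs 1 and 3, so their sizes are uncertain.

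Of 16 measured mitochondrial partners 1 was higher at the unadjusted threshold, SLC25A20, against 1.84% of all genes. The median of the 16 was 0.23, with 0.27, 0.35 and -0.04 in pigs 1, 2 and 3. ETFA, a subunit of the electron acceptor of acyl-CoA dehydrogenases, had 8.35, 7.78 and 5.54 in CD163high against 4.86, 7.22 and 6.20 in CD163low, with the array pattern of ACADM and a difference of 1.13 ± 0.89. PCCA, a propionyl-CoA carboxylase subunit, had 0.48 ± 0.31.

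Of 13 measured regulators none had an unadjusted limma p under 0.05, and their median was -0.07. PPARD, a lipid-sensing nuclear receptor, had 4.63, 5.08 and 4.79 in CD163high against 5.55, 5.00 and 5.84 in CD163low, a difference of -0.63 ± 0.27 (limma unadjusted p = 0.0552). PPARA, the receptor known in rodent liver to induce EHHADH, had 3.73, 3.43 and 3.56 in CD163high against 3.28, 3.64 and 3.24 in CD163low, a difference of 0.19 ± 0.19. NCOR1, a corepressor, had -0.38 ± 0.38.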

How the data were processed

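The deposited values are the authors' intensity per probe set for 6 arrays. Per the submitters' processing notes the tools included RMA and limma, with neither version nor role stated; probe-set definition and filters were not found in the labels. RMA-type processing brings arrays to a like scale and compresses differences of dim probe sets. Differences between whole arrays remained in the values used here. Log2 medians of the tested probe sets were 3.13 to 3.31, and 676 to 6700 probe sets per array were brighter than all background controls. For 47659 rows the deposited values became multiples of 0.0001 on the log2 scale, so log2 was taken of these; the first 186 rows, mostly controls, were already log2 and were kept. The single scale was inferred and is not stated by the authors. Medians of the deposited columns were 8.73 to 9.86.

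The 123 control probe sets were left out. Genes were named from the array's annotation, which can be old; all 47 member symbols were found in current RefSeq or Ensembl name tables, and the older symbol PECI (ECI2) was not matched by the rule. No coordinates or sequences are given. The number of arrays limits the precision.

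Limma (version 3.58.1, R 4.3.3; lmFit, eBayes) was fitted without a block, two-sided, to all 47722 probe sets with Benjamini-Hochberg adjustment, and tested on simulated data. The labels put both populations of a pig under 1 number, so the pig was a block in an alternative; deviations of the 2 arrays of pigs 1, 2 and 3 correlated at -0.20, 0.67 and 0.26 over all probe sets. P-values measure the spread between arrays of 3 animals. Other alternatives were a random block, background signal as a covariate, trended robust variance, array weights, filters on dim probe sets, quantile normalization, median centring, the mean of all probe sets, omission of pigs and arrays, other thresholds and other list definitions; the 4 arrays with the lowest background were added after the data were seen.

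Members and lists were chosen with earlier results of these data known. Named with values were textbook key steps, members with an unadjusted p under 0.05 or without overlap, the 3 smallest p of each list and members whose probe sets disagree; the remaining members were added for completeness.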

Additional observations from a re-analysis of the deposited data

How the results depend on the processing

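Limma called 0 probe sets at an adjusted p of 0.05 in every alternative that was run, and 0 at 0.1; the probe sets with an unadjusted p under 0.05 numbered between 604 without the dimmest 50% and 8884 with array weights. The count of members with an unadjusted p under 0.05 was 3 as reported. With the pig as a replicate block it was 6 when fixed (against 5.12% of genes) and 4 when random (4.77%). It was 14 with background signal as a covariate (against 13.8% of genes), 18 with array weights (22.8%) and 2 with trended robust variance (2.11%). Without the dimmest 33.3% of probe sets it was 2 (2.71%), and without the dimmest 50% it was 2 (2.68%). At an unadjusted p of 0.01 it was 2, and the share of genes there was not computed. On omission of single pigs or arrays it was 2 to 11 (1.81% to 7.36%). EHHADH and ACSL1 had an unadjusted p under 0.05 in all 20 alternatives computed for single genes, with differences of 0.99 to 2.03 and -1.36 to -0.80. Non-overlapping members numbered 4 as reported, 6 with quantile normalization (against 7.68% of genes), 6 with median centring (6.88%), 5 to 19 on omission of single pigs or arrays (10.2% to 28.3%), and 24 with the 4 lowest-background arrays alone (against 30.3% of genes), where fewer arrays make overlap rarer. On such omissions the median of the peroxisomal enzymes ran between -0.20 and 0.17, that of the peroxins between -0.13 and 0.059, and that of the mitochondrial steps between 0.27 and 0.54. The peroxin median was -0.25 with array weights, and the mitochondrial one 0.53 with the 4 lowest-background arrays. Of 34 named genes 25 kept their sign in all alternatives computed. The sign turned on an omission for ACOT9 (-0.043 to 1.76), ACSL5 (-0.16 to 1.42), CPT1B (-0.28 to 0.082), ETFA (-0.053 to 2.02), HADHB (-0.080 to 1.19), PEX19 (-0.30 to 0.88) and PEX3 (-0.095 to 0.78). It also turned with the 4 lowest-background arrays for CPT1B (0.052) and PEX19 (-0.051), with array weights for PEX19 (-0.30), and with averaged probe sets for PEX26 (0.23) and PPARA (-0.033). The cause of these turns was not tested. Genes near background, among them EHHADH in CD163low, ACOT8 and ACAA2, have compressed or uncertain sizes.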

Other observations

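PECI, the older symbol of ECI2, an enoyl-CoA isomerase of peroxisomes and mitochondria, was outside the rule by its name and was looked up after the other values were seen. Its brightest probe set had log2 signals of 5.66, 4.69 and 4.84 in CD163high against 5.50, 4.55 and 4.89 in CD163low, a difference of 0.08 ± 0.36, and its other probe set had 0.23 ± 0.27. DECR2, a peroxisomal reductase of unsaturated chains, had 4.25, 3.76 and 4.27 in CD163high against 4.34, 4.31 and 4.44 in CD163low. Its groups did not overlap, with a difference of -0.27 ± 0.20 (limma unadjusted p = 0.222).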
